A study of Homo sapiens with 9 samples.

Results

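The 10 genes described here belong to or are controlled by the integrated stress response: ATF4, ATF5, DDIT3 (which encodes CHOP), CEBPB, TRIB3, ASNS, CHAC1, DDIT4, SESN2 and VLDLR. They were taken by symbol from a table of TPM values (an abundance normalised for transcript length and library size) for 58174 genes in 9 libraries. All 10 symbols were found once each, and all 10 passed the filter on low values. There were 3 libraries from cells labelled as overexpressing NFE2L1, 3 from cells labelled as overexpressing NFE2L1DC, and 3 control libraries, labelled WT by genotype and named in the protocol after pLVX, a lentiviral vector. All were labelled HepG2, a line derived from a human liver tumour, and were grown in high-glucose DMEM with fetal bovine serum, with no stress treatment given. NFE2L1, a cap'n'collar transcription factor, is anchored in the endoplasmic reticulum membrane until it is processed. NFE2L1DC appears in the protocol as NFE2L1ΔC, and neither the residues it lacks, nor the promoter of the transgenes, nor whether a line was 1 clone is stated in the labels.

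In the integrated stress response, kinases that sense amino acid shortage, double-stranded RNA, heme shortage or misfolded protein in the endoplasmic reticulum phosphorylate the translation factor eIF2. General protein synthesis then slows, while the ATF4 mRNA is translated better through its upstream open reading frames. ATF4 switches on genes of amino acid supply and, with CHOP, genes that end the response or kill the cell. ATF4 is therefore controlled mainly through its protein, which RNA-seq does not measure.

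Several facts of the series bear on every value. The liver label was not borne out: of 10 genes that define hepatocytes and HepG2 cells, none reached 1 TPM in any library. ALB, APOB, TTR, SERPINA1 and FGB were listed at 0 in all 9. The markers summed to between 0.0652 and 0.319 TPM in NFE2L1 libraries, between 0.0578 and 0.289 TPM in NFE2L1DC libraries and between 0.0886 and 0.127 TPM in control libraries. These cells are therefore called by their labels below, and no other cell type is assigned. Leukocyte (5 genes) and endothelial (4 genes) markers did not reach 1 TPM either. Of 3 neural markers MAP2 alone reached 1 TPM; the list summed to between 1.05 and 1.08 TPM with NFE2L1, between 0.177 and 0.318 TPM with NFE2L1DC and between 0.316 and 0.422 TPM in control. Of 5 fibroblast genes, COL1A1 and COL3A1 reached 1 TPM in every library, COL1A2 was listed at 0 throughout, and DCN ranged from 0.267 to 5.65 TPM. The list summed to between 88.9 and 101 TPM with NFE2L1, between 81.3 and 95.8 TPM with NFE2L1DC and between 121 and 140.3 TPM in control. Mitochondrial transcripts made up between 15.3% and 17.7% of TPM with NFE2L1 and between 17.0% and 17.7% with NFE2L1DC, against between 18.3% and 18.9% in control. Median-of-ratios size factors lay between 1.06 and 1.07 with NFE2L1 and between 0.982 and 1.08 with NFE2L1DC, while control replicates 1, 2 and 3 had 0.889, 0.873 and 1.07. The part of these lists and shares in the results was not tested. The NFE2L1 gene itself stood at 247 ± 93.5 TPM with NFE2L1 and 448 ± 22.9 TPM with NFE2L1DC, against 83.3 ± 20.2 TPM in control (SD, n = 3 each). Control replicate 3 stood apart from the other 2 control libraries along the GC content of the genes. Spearman's rho was -0.677 over 11445 protein-coding genes, and genes are no independent replicates. Several results that turn on this library are given with and without it. The table holds no read counts, so the depth is unknown and no counting interval can be given. In bulk RNA, a change in the number of expressing cells and a change in RNA per cell cannot be told apart.

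ATF4 acts with C/EBP proteins at a composite element, the CARE, whose core was searched as TGATGNAA on both strands in the 250 bases before each start in RefSeq (GRCh38.p14). All 10 genes had a window in that table, 18 in all, since some have several starts. ASNS and CHAC1 held the core in 1 window each, against 3.14% of the 35116 windows of all genes. Both sites are shown in the gene's own direction because ASNS and CHAC1 are known ATF4 targets; the core is in capitals, and in CHAC1 it reads on the opposite strand.
ASNS, chr7:97872458-97872487, minus strand, core 68 to 61 bases before the start: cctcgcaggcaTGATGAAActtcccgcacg
CHAC1, chr15:40953251-40953280, plus strand, core 209 to 202 bases before the start: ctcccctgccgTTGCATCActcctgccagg
For the antioxidant response element, to which cap'n'collar factors bind, only a loose form of the core was searched, TGANNNNGC, with the base after TGA left free. This loose form was in 3 of the 18 windows, 1 each of ASNS, CEBPB and VLDLR, against 35.2% of all windows. No window of TRIB3 held it.
No window of the 10 genes held the CRE core TGACGT (7.1% of all windows) or the endoplasmic reticulum stress element (0.074%). A match is a description of letters, and sites outside these windows were not searched.

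At the level of TPM, which is per length and so can be compared between genes, ATF4 and DDIT4 were the most abundant of the 10 in each group, and CHAC1 and VLDLR the least. In the NFE2L1 line the order of mean levels ran ATF4, DDIT4, CEBPB, TRIB3, ASNS, DDIT3, ATF5, SESN2, CHAC1 and VLDLR, with CEBPB and TRIB3 overlapping between libraries, as did DDIT3 and ATF5. In the NFE2L1DC line, TRIB3 and CEBPB were level at 93.2 ± 2.02 and 92.9 ± 3.03 TPM, and ATF5 stood just above DDIT3. There DDIT3 overlapped SESN2, and CHAC1 overlapped VLDLR. In control the order ran ATF4, DDIT4, CEBPB, ASNS, TRIB3, DDIT3, ATF5 and SESN2, with the TRIB3 libraries overlapping those of ASNS and the ATF5 libraries those of DDIT3.

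**Figure D1:**
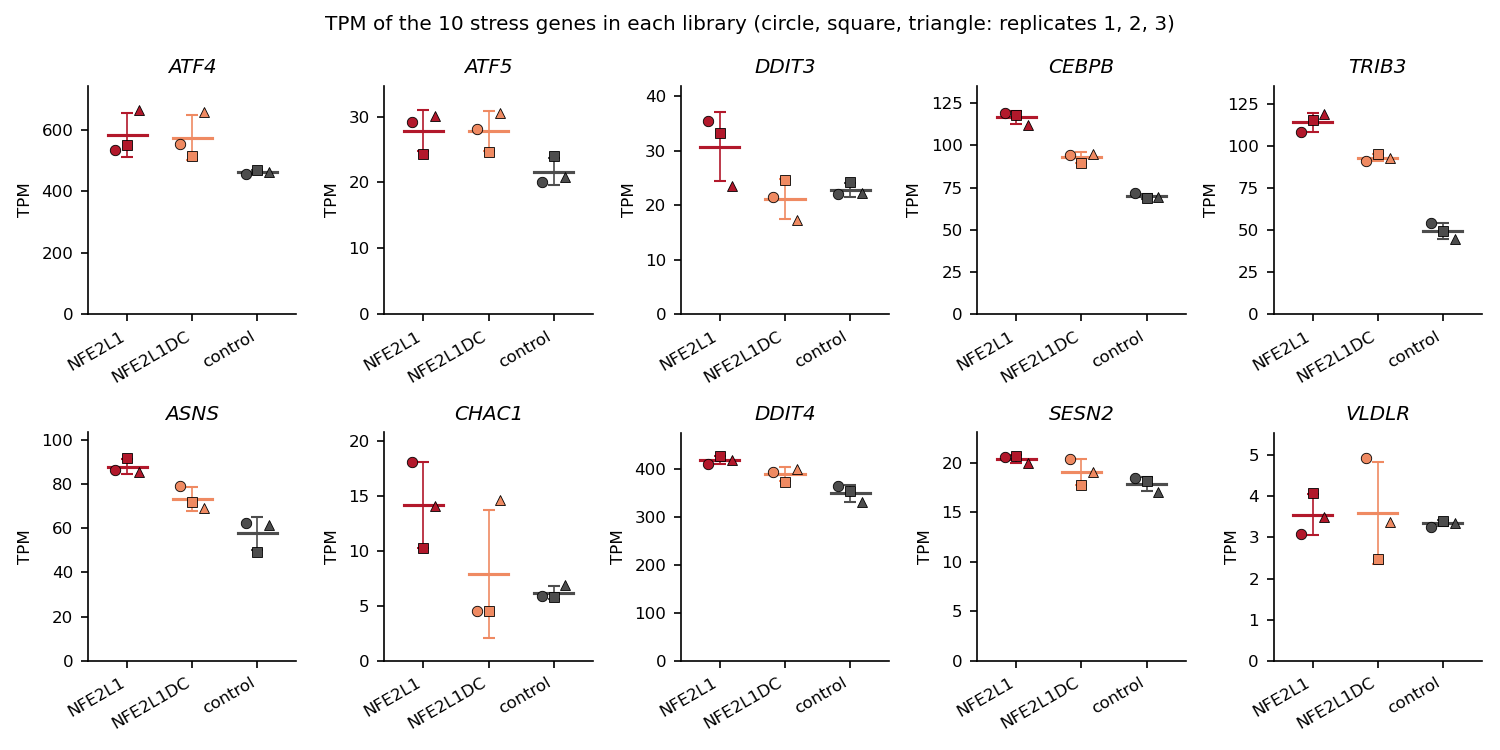
TPM of each gene (vertical axes, linear, from 0) in the 3 NFE2L1, 3 NFE2L1DC and 3 control libraries; symbols are replicates 1, 2 and 3, horizontal lines are means and error bars are SD. TRIB3, CEBPB, ASNS and DDIT4 step down across the 3 groups without overlap between groups, while CHAC1 has a single high NFE2L1DC library at 14.6 TPM.

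The NFE2L1 line was compared with control, to see where these genes stood when the full-length form was raised. TRIB3, CEBPB, ASNS and DDIT4 were higher, TRIB3 by more than 2-fold and DDIT4 by 1.2-fold, and none of the 10 was lower. These 4 of 10 passed limma at an adjusted p under 0.05 over all 14118 genes tested, of which 10.4% were called, 7.83% higher and 2.57% lower. Without control replicate 3, 4 of the 10 were again called higher, where 30.6% of all genes were. In 8 of the 10 genes every NFE2L1 library lay above every control library, beside 22.6% of all genes tested, the exceptions being DDIT3 and VLDLR. None lay wholly below control, beside 9.53% of all genes. The median log2 fold change of the 10 was 0.37, beside 0.17 over all genes tested, and 9 of the 10 lay above that all-gene median. Fold changes on the log2 scale are of log2(TPM + 1), which understates changes of low genes, and folds are ratios of mean TPM.

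The NFE2L1DC line, set against the same 3 control libraries, had TRIB3 and CEBPB higher. These 2 of 10 passed, where 3.61% of all genes were called, 2.06% higher and 1.54% lower, and none of the 10 was called lower. Without control replicate 3, 3 of the 10 were called higher, where 20.4% of all genes were. Every NFE2L1DC library lay above every control library in 6 of the 10 genes, beside 13.7% of all genes, and in none wholly below it, beside 8.98%. The median log2 fold change was 0.23, beside 0.12 over all genes. Between the lines, NFE2L1 against NFE2L1DC, no gene of the 10 passed limma, where 0.793% of all genes were called, 0.715% higher and 0.0779% lower with NFE2L1. Unadjusted, 5 of the 10 and 1156 of all genes had a limma p under 0.05. The log2 fold change was positive for all 10, as it was for 63.1% of all genes. The median of the 10 was 0.18 and that of all genes 0.06. The signs of ATF4, ATF5 and VLDLR turn under median-of-ratios scaling, and the mean of VLDLR was 3.56 TPM with NFE2L1 and 3.60 TPM with NFE2L1DC. In 4 genes, CEBPB, TRIB3, ASNS and DDIT4, every NFE2L1 library exceeded every NFE2L1DC library, beside 12.4% of all genes, and none was wholly lower, beside 5.55%.

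**Figure D2:**
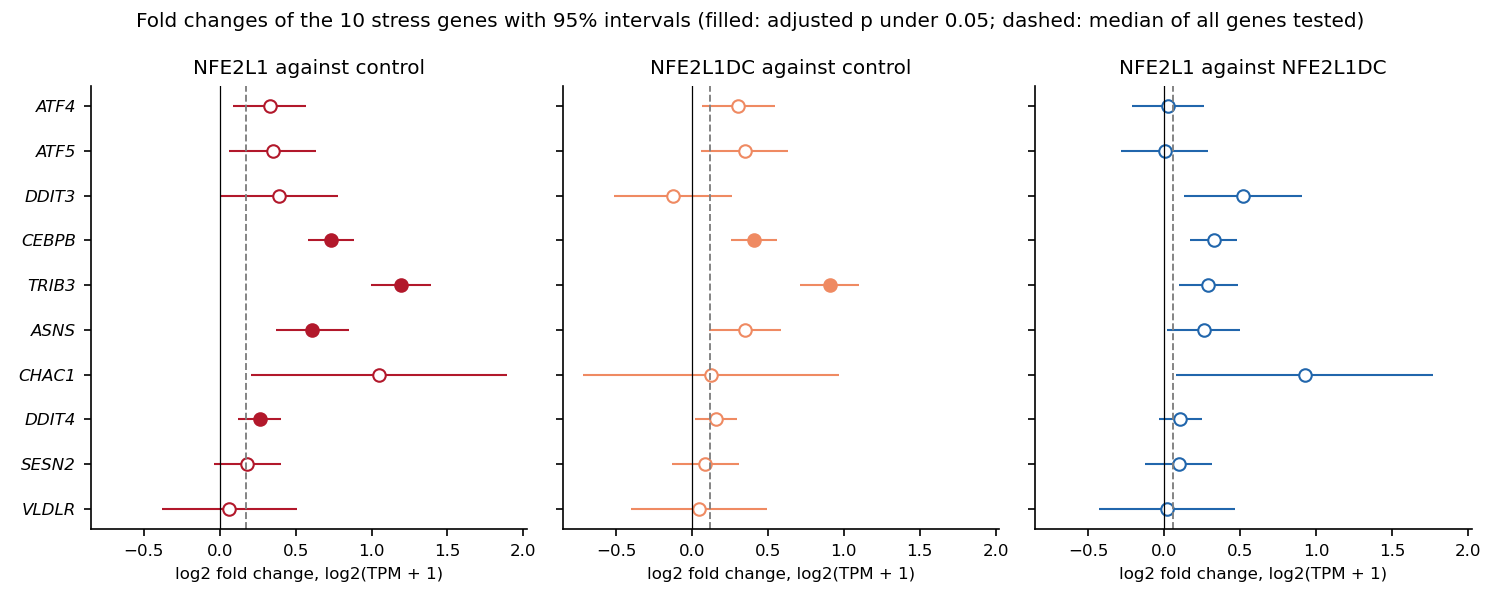
Log2 fold change of log2(TPM + 1) with its 95% interval (horizontal axes) for the 10 genes in the 3 comparisons; filled points passed limma at an adjusted p under 0.05, and the dashed line is the median of all genes tested, at 0.17, 0.12 and 0.06. TRIB3 lies farthest right among the called genes in both comparisons with control.

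Of the transcription factors, ATF4 (ENSG00000128272, GRCh38 chromosome 22, 39519695 to 39522685, plus strand) is the central activator of the response. It had 535, 552 and 665 TPM in NFE2L1 libraries, 553, 515 and 657 TPM in NFE2L1DC libraries, and 455, 469.5 and 464 TPM in control libraries. All 6 overexpressing libraries lay above the 3 control libraries, and replicate 3 was the highest in both lines. Neither difference passed: the log2 fold change was 0.33 with NFE2L1 (95% interval 0.09 to 0.57, limma adjusted p = 0.077) and 0.31 with NFE2L1DC (0.07 to 0.54, adjusted p = 0.142). After correction for GC content and length ATF4 passed with NFE2L1 (0.38, adjusted p = 0.0368). It passed with NFE2L1 in 2 of 20 other settings and with NFE2L1DC in 1, and in none of the 9 that left out 1 library. With NFE2L1 the value lay between 0.14 and 0.39 over these settings, with adjusted p up to 0.527. ATF4 has processed pseudogenes, of which ATF4P3 reached 3.93 TPM and 3 others stayed at or under 0.744 TPM.

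ATF5, a related bZIP factor that is also controlled in translation, had 29.1, 24.3 and 30.1 TPM with NFE2L1, 28.2, 24.6 and 30.6 TPM with NFE2L1DC and 20.1, 24.0 and 20.8 TPM in control. The lowest library of each line lay just above the highest control library, and the log2 fold changes of 0.35 with both forms (adjusted p = 0.106 and 0.161) did not pass. After the GC and length correction ATF5 passed with NFE2L1 (0.49, adjusted p = 0.0423), the 1 of 20 other settings in which it did. Over these settings its value with NFE2L1 lay between 0.17 and 0.49, with adjusted p up to 0.493. ATF5 (chromosome 19, 49928702 to 49933935) shares 626 of its 2954 exonic bases with NUP62 on the opposite strand, which averaged 101 TPM. The labels do not say whether the libraries kept strand, and without strand such reads cannot be told apart.

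CEBPB, a C/EBP factor that pairs with ATF4 and CHOP (ENSG00000172216, chromosome 20, 50190734 to 50192689, plus strand), had 119, 118 and 112 TPM in NFE2L1 libraries, 94.1, 89.4 and 95.1 TPM in NFE2L1DC libraries and 71.6, 68.7 and 69.2 TPM in control libraries. The 3 groups did not overlap anywhere. CEBPB rose 1.67-fold with NFE2L1 (log2 fold change 0.73, SE 0.07, limma adjusted p = 0.000312) and 1.33-fold with NFE2L1DC (0.41, SE 0.07, adjusted p = 0.0165). The NFE2L1 line exceeded the NFE2L1DC line by 0.32 (95% interval 0.17 to 0.48), which did not pass over all genes (adjusted p = 0.0954). The call with NFE2L1DC ended under median-of-ratios scaling (0.29, adjusted p = 0.194) and also without control replicate 2, NFE2L1DC replicate 1 or NFE2L1DC replicate 3 (adjusted p = 0.0809, 0.0676 and 0.0821), and held in 13 of 20 other settings. The call with NFE2L1 held in each of 20 other settings.

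DDIT3 encodes CHOP, which drives the late and death-promoting side of the response. It had 35.4, 33.3 and 23.5 TPM with NFE2L1, 21.5, 24.6 and 17.2 TPM with NFE2L1DC and 22.0, 24.3 and 22.3 TPM in control. Replicates 1 and 2 of NFE2L1 lay above all other libraries, while replicate 3 lay among the control values. Against control, DDIT3 was at 0.39 on the log2 scale with NFE2L1 (95% interval 0.0024 to 0.78, limma adjusted p = 0.163) and at -0.12 with NFE2L1DC (-0.51 to 0.26, adjusted p = 0.686), and neither passed. It passed with NFE2L1 when all number-3 libraries were left out (adjusted p = 0.0268). That setting was chosen after seeing the data, leaves out the NFE2L1 library at 23.5 TPM, and called 24.5% of all genes. DDIT3 passed with NFE2L1 in this 1 of 20 other settings, and in none of the 9 that left out 1 library. NFE2L1 exceeded NFE2L1DC by 0.52 (95% interval 0.13 to 0.91, adjusted p = 0.416).

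DDIT3 (ENSG00000175197, chromosome 12, 57516588 to 57521737, minus strand) shares 355 of its 1307 exonic bases with MARS, the methionyl-tRNA synthetase gene on the opposite strand. MARS had 227, 228 and 175 TPM in NFE2L1 libraries, 179, 198 and 152 TPM in NFE2L1DC libraries and 149.5, 147 and 139.9 TPM in control libraries. Replicate 3 was the lowest library for both genes in each overexpressing line. The order of the 3 libraries was the same for both genes in the NFE2L1DC line, and differed in the NFE2L1 line, where replicates 1 and 2 changed places, and in control. MARS was far more abundant than DDIT3 in every library, and the part of shared reads in the DDIT3 values was not tested.

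**Figure D3:**
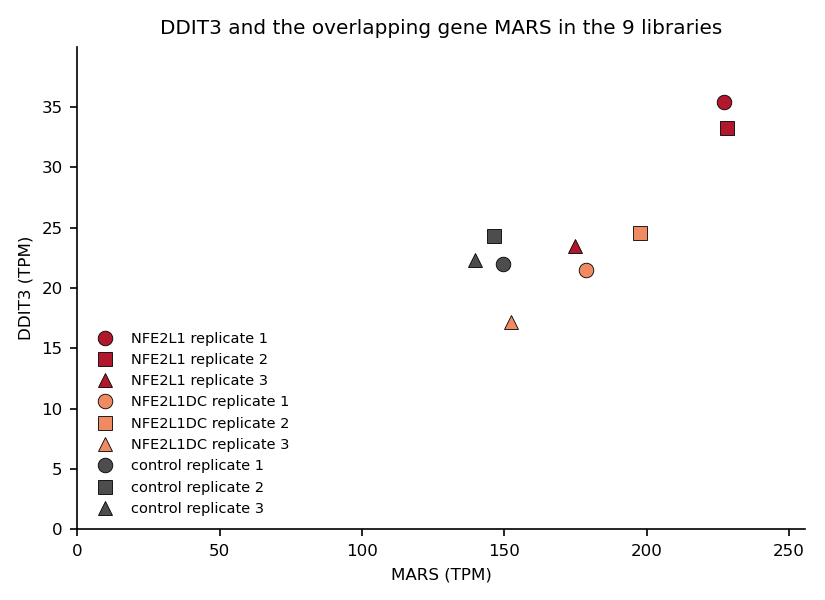
TPM of DDIT3 (vertical axis) against TPM of MARS (horizontal axis), both linear from 0, in the 9 libraries; colours are groups and symbols are replicates. NFE2L1 replicates 1 and 2 lie highest on both axes, at 35.4 and 33.3 TPM of DDIT3, and the triangle of each overexpressing line lies below and left of its other libraries.

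TRIB3 encodes a pseudokinase that ATF4 and CHOP induce and that restrains both ATF4 and AKT. The gene (ENSG00000101255, chromosome 20, 362835 to 397559, plus strand) had 108, 115 and 119 TPM in NFE2L1 libraries, 91.4, 95.4 and 92.9 TPM in NFE2L1DC libraries and 54.3, 49.4 and 44.6 TPM in control libraries. The 3 groups were separated by gaps wider than the SD of any of them. TRIB3 rose with NFE2L1DC by a log2 fold change of 0.91 (SE 0.09, limma adjusted p = 0.00127), a 1.89-fold difference, and the corresponding value with NFE2L1 was 1.20 (adjusted p = 8.06e-05). Both calls held in all 20 other settings, between 1.01 and 1.33 with NFE2L1 and between 0.79 and 0.99 with NFE2L1DC. The NFE2L1 line stood above the NFE2L1DC line by 0.29 (95% interval 0.09 to 0.49), with every library higher, but did not pass over all genes (adjusted p = 0.322).

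ASNS, asparagine synthetase, is a classical ATF4 target and carries the CARE core shown above. The gene (ENSG00000070669, chromosome 7, 97852118 to 97872542, minus strand) had 86.5, 91.9 and 85.5 TPM in NFE2L1 libraries, 79.4, 71.8 and 69.0 TPM in NFE2L1DC libraries and 62.4, 49.1 and 61.5 TPM in control libraries. No library of either line fell among the control libraries. ASNS also shares 1985 of its 4455 exonic bases with AC079781.5, a transcript on the same strand for which no value was used. ASNS rose 1.53-fold with NFE2L1 (log2 fold change 0.61, SE 0.11, limma adjusted p = 0.00923), a call that held in all 20 other settings. With NFE2L1DC the value was 0.35 (SE 0.11, adjusted p = 0.107). It passed without control replicate 3 (0.40, adjusted p = 0.036), the 1 of 20 other settings in which it did. In that fit 20.4% of all genes were called higher with NFE2L1DC.

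CHAC1, which breaks down glutathione and is induced by ATF4 and CHOP, was the most uneven of the 10. The gene (ENSG00000128965, chromosome 15, 40952962 to 40956519, plus strand) had 18.1, 10.3 and 14.1 TPM in NFE2L1 libraries, 4.48, 4.54 and 14.6 TPM in NFE2L1DC libraries and 5.89, 5.75 and 6.85 TPM in control libraries. All NFE2L1 libraries lay above control, whereas NFE2L1DC replicates 1 and 2 lay under control and replicate 3 among the NFE2L1 values. The mean with NFE2L1 was 2.29 times control (log2 fold change 1.05, SE 0.38), which did not pass (limma adjusted p = 0.101). NFE2L1DC replicate 3 decided these results. Without it, NFE2L1 against control passed at 1.05 (adjusted p = 0.0216), NFE2L1 against NFE2L1DC was 1.42 (adjusted p = 0.0491) in place of 0.92 (adjusted p = 0.561), and NFE2L1DC against control was -0.38 (adjusted p = 0.399) in place of 0.12 (adjusted p = 0.862). Within the NFE2L1DC line, that library was also the highest for ATF4, at 657 TPM, and the lowest for DDIT3, at 17.2 TPM.

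DDIT4 and SESN2 encode brakes on mTORC1, the kinase complex that couples nutrient supply to growth. DDIT4 (ENSG00000168209, chromosome 10, 72273920 to 72276036, plus strand) had 411, 429 and 420.0 TPM in NFE2L1 libraries, 396, 374 and 401 TPM in NFE2L1DC libraries and 365, 356 and 331 TPM in control libraries. The groups did not overlap, and the steps between them were small. DDIT4 rose 1.20-fold with NFE2L1 (log2 fold change 0.26, SE 0.06, limma adjusted p = 0.0299), and with NFE2L1DC the value was 0.16 (adjusted p = 0.186). The median of all genes was itself 0.17 with NFE2L1. Median-of-ratios scaling brought that median to 0.01 and DDIT4 to 0.08 (adjusted p = 0.713), which ended the call, and the call held in 10 of 20 other settings. It ended when any NFE2L1 library, control replicate 1 or control replicate 2 was left out, with adjusted p between 0.0538 and 0.102.

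SESN2 had 20.6, 20.7 and 19.9 TPM with NFE2L1, 20.4, 17.7 and 19.1 TPM with NFE2L1DC and 18.5, 18.1 and 17.1 TPM in control. The libraries of the NFE2L1 line lay just above control, and those of NFE2L1DC overlapped it. Its log2 fold changes were 0.18 (95% interval -0.04 to 0.40) and 0.09 (-0.14 to 0.31), and neither passed (limma adjusted p = 0.242 and 0.624).

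VLDLR, a lipoprotein receptor that ATF4 induces in mouse liver under endoplasmic reticulum stress, was the lowest of the 10. It had 3.09, 4.08 and 3.51 TPM with NFE2L1, 4.92, 2.49 and 3.38 TPM with NFE2L1DC and 3.27, 3.41 and 3.36 TPM in control. The libraries of both lines lay above, below and, for NFE2L1DC replicate 3, among the control libraries. The log2 fold changes of 0.06 (95% interval -0.38 to 0.51) and 0.05 (-0.40 to 0.49) did not pass (limma adjusted p = 0.847 and 0.901), and their sign turned under median-of-ratios scaling.

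Genes whose levels ran most like those of ATF4, DDIT3 and TRIB3 were sought among 6872 protein-coding genes with a mean of at least 10 TPM, by Pearson's r of log2(TPM + 1) over the 9 libraries, which fall into 3 groups, so that r mostly ranks the group steps. For TRIB3 they were DUSP1, a phosphatase of MAP kinases (r = 0.995), IER3, an early response gene (0.992), and EPOP (0.99). DUSP1 had 104, 106 and 104 TPM with NFE2L1, 88.8, 87.1 and 87.3 TPM with NFE2L1DC and 50.7, 47.0 and 46.0 TPM in control, the same steps as TRIB3 at nearly the same level. For ATF4 they were RIC8A (0.954), ZNF777 (0.942) and EMG1 (0.941). RIC8A shared its high replicate 3, with 66.2, 66.9 and 74.2 TPM with NFE2L1, 68.5, 67.8 and 75.4 TPM with NFE2L1DC and 55.9, 60.1 and 57.7 TPM in control. For DDIT3 they were CXCR4 (0.889), PARP10 (0.881) and TAF8 (0.868). PARP10, an interferon-linked gene, had 24.3, 25.2 and 15.4 TPM with NFE2L1, 7.18, 8.56 and 7.85 TPM with NFE2L1DC and 8.35, 11.8 and 11.0 TPM in control, so that NFE2L1 replicate 3 was again the low library of its group.

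The wider pathway was read through 12 lists holding 106 other genes, of which 100 passed the filter. With NFE2L1, 18 rose and 1 fell, where 7.83% of all genes were called higher and 2.57% lower, and the median log2 fold change was 0.28, beside 0.17 over all genes. With NFE2L1DC, 4 rose and none fell, against backgrounds of 2.06% and 1.54%, and their median was 0.20, the all-gene value being 0.12. These counts rest on the control libraries and the scaling. Without control replicate 3, 51 of the 100 changed with NFE2L1, where 36.3% of all genes did, and 37 with NFE2L1DC, where 24.7% did. Without control replicate 1, 10 changed with NFE2L1 (4.37% of all genes) and 1 with NFE2L1DC (1.48%), and without control replicate 2, 8 (3.57%) and 1 (0.785%). Under median-of-ratios scaling 11 rose and 1 fell with NFE2L1, beside 3.84% and 3.73% of all genes, and with NFE2L1DC none rose and 1 fell, beside 0.843% and 1.4%. Of the 19 calls with NFE2L1, those of CEBPD, EIF2S1, NFIL3, PSAT1, STC2 and WARS held in all 20 other settings, and of the 4 with NFE2L1DC none did.

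Upstream of ATF4, of 10 genes that set eIF2 phosphorylation 3 rose with NFE2L1 and none with NFE2L1DC, with medians of 0.38 and 0.24. Without control replicate 3, 8 of the 10 rose with NFE2L1 and 4 with NFE2L1DC, where 30.6% and 20.4% of all genes were called higher. EIF2AK2, the kinase PKR that senses double-stranded RNA, had 11.2, 11.3 and 15.3 TPM with NFE2L1, 8.01, 6.69 and 6.50 TPM with NFE2L1DC and 3.62, 4.32 and 7.11 TPM in control. It rose 2.51-fold with NFE2L1 (log2 fold change 1.21, SE 0.22, limma adjusted p = 0.011) and did not pass with NFE2L1DC (0.46, adjusted p = 0.262). With all libraries the other kinases did not pass. EIF2AK3, the kinase PERK of the endoplasmic reticulum, was at 0.23 and 0.17 on the log2 scale with NFE2L1 and NFE2L1DC. EIF2AK4, the amino acid sensor GCN2, was at 0.36 and 0.40, and EIF2AK1, the heme sensor HRI, at 0.18 and 0.07.

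EIF2S1 encodes eIF2 alpha, the subunit these kinases phosphorylate, and its mRNA parted the lines. It had 78.6, 76.9 and 78.5 TPM in NFE2L1 libraries, 39.8, 34.4 and 35.8 TPM in NFE2L1DC libraries and 40.8, 44.5 and 52.7 TPM in control libraries. All NFE2L1 libraries lay far above the rest, and all NFE2L1DC libraries lay under control. It rose 2.13-fold in the NFE2L1 line over the NFE2L1DC line (log2 fold change 1.07, SE 0.11, limma adjusted p = 0.00192) and 1.69-fold over control (0.76, adjusted p = 0.00318), and both calls held in all 20 other settings. With NFE2L1DC against control it was -0.32, which did not pass (adjusted p = 0.134). It was the single gene of the 100 called between the lines. PPP1R15A, which encodes the phosphatase subunit GADD34 that reverses eIF2 phosphorylation, rose 1.29-fold with NFE2L1 (0.36, adjusted p = 0.0385). The PPP1R15A call held in 7 of 20 other settings, and ended under median-of-ratios scaling (0.17, adjusted p = 0.398). None of 5 eIF2B subunits, the exchange factor that phosphorylated eIF2 blocks, passed in any comparison with all libraries. Without control replicate 3, 1 rose with NFE2L1 and 1 with NFE2L1DC, beside 30.6% and 20.4% of all genes.

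Among 9 bZIP partners of ATF4 and CHOP, 2 rose with NFE2L1 and 1 with NFE2L1DC, where 7.83% and 2.06% of all genes were called higher. CEBPD, a C/EBP relative of CEBPB, had 34.5, 38.5 and 39.0 TPM with NFE2L1, 27.0, 23.9 and 27.0 TPM with NFE2L1DC and 16.9, 18.8 and 17.9 TPM in control, without overlap between the groups. It rose 2.09-fold with NFE2L1 (limma adjusted p = 0.000427) and 1.45-fold with NFE2L1DC (adjusted p = 0.0286). NFIL3, a repressor of the bZIP family, rose 2.11-fold with NFE2L1 (adjusted p = 0.00839). Without control replicate 3, 5 of the 9 rose with NFE2L1, beside 30.6% of all genes. With NFE2L1DC 4 rose and 1 fell there, beside 20.4% and 4.32%.

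Of 9 amino acid transporters under ATF4, 4 rose with NFE2L1 and 2 with NFE2L1DC, where 7.83% and 2.06% of all genes were called higher. SLC1A5, the glutamine carrier, had 437, 454 and 483 TPM with NFE2L1, 409, 470.5 and 462 TPM with NFE2L1DC and 328, 293 and 294.5 TPM in control, and rose by 0.58 and 0.55 on the log2 scale (limma adjusted p = 0.0024 and 0.00806). SLC7A1, the arginine carrier, rose by 0.50 and 0.43 (adjusted p = 0.0144 and 0.0488). Its call with NFE2L1DC held in 6 of 20 other settings. SLC38A2 and the cystine carrier SLC7A11 rose with NFE2L1, by 1.16 and 1.09 (adjusted p = 0.0178 and 0.0145). Without control replicate 3, 4 of the 9 rose with NFE2L1 and 4 with NFE2L1DC, beside 30.6% and 20.4% of all genes.

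Of 12 genes of amino acid synthesis that were tested, PSAT1 of the serine pathway rose with NFE2L1 (1.94-fold, limma adjusted p = 0.0107). None passed with NFE2L1DC, and the list medians were 0.16 and 0.22. Without control replicate 3, 2 rose and 1 fell with NFE2L1, beside 30.6% and 5.73% of all genes. With NFE2L1DC 1 rose and 1 fell there, beside 20.4% and 4.32%. All 12 aminoacyl-tRNA synthetase and tRNA export genes had a positive log2 fold change with both forms, as did 68.7% of all genes with NFE2L1 and 65.5% with NFE2L1DC. The values lay between 0.03 and 0.90 with NFE2L1 and between 0.07 and 0.82 with NFE2L1DC, and 3 passed with NFE2L1 and none with NFE2L1DC. Control replicate 3 stood apart in several of them: IARS had 102, 100.1 and 96.2 TPM with NFE2L1, 102, 79.3 and 77.0 TPM with NFE2L1DC and 41.8, 43.3 and 87.1 TPM in control. Without that library 11 of the 12 were positive in both lines, 9 passed with NFE2L1 and 8 with NFE2L1DC, where 30.6% and 20.4% of all genes were called higher. The 3 called with all libraries were WARS (0.86, adjusted p = 0.00514), which interferon is also known to induce, GARS (0.54, adjusted p = 0.0308) and MARS (0.52, adjusted p = 0.0315). The GARS call held in 9 of 20 other settings and the MARS call in 13. Of 5 secreted stress factors tested, 3 rose with NFE2L1 and none passed with NFE2L1DC. The 3 were STC2, a stanniocalcin (1.90-fold, adjusted p = 0.00421), ADM2 (1.78-fold, adjusted p = 0.0265) and the hormone gene GDF15 (1.40-fold, adjusted p = 0.0108). Without control replicate 3, 3 of these 5 rose with NFE2L1 and 1 with NFE2L1DC, beside 30.6% and 20.4% of all genes.

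**Figure D4:**
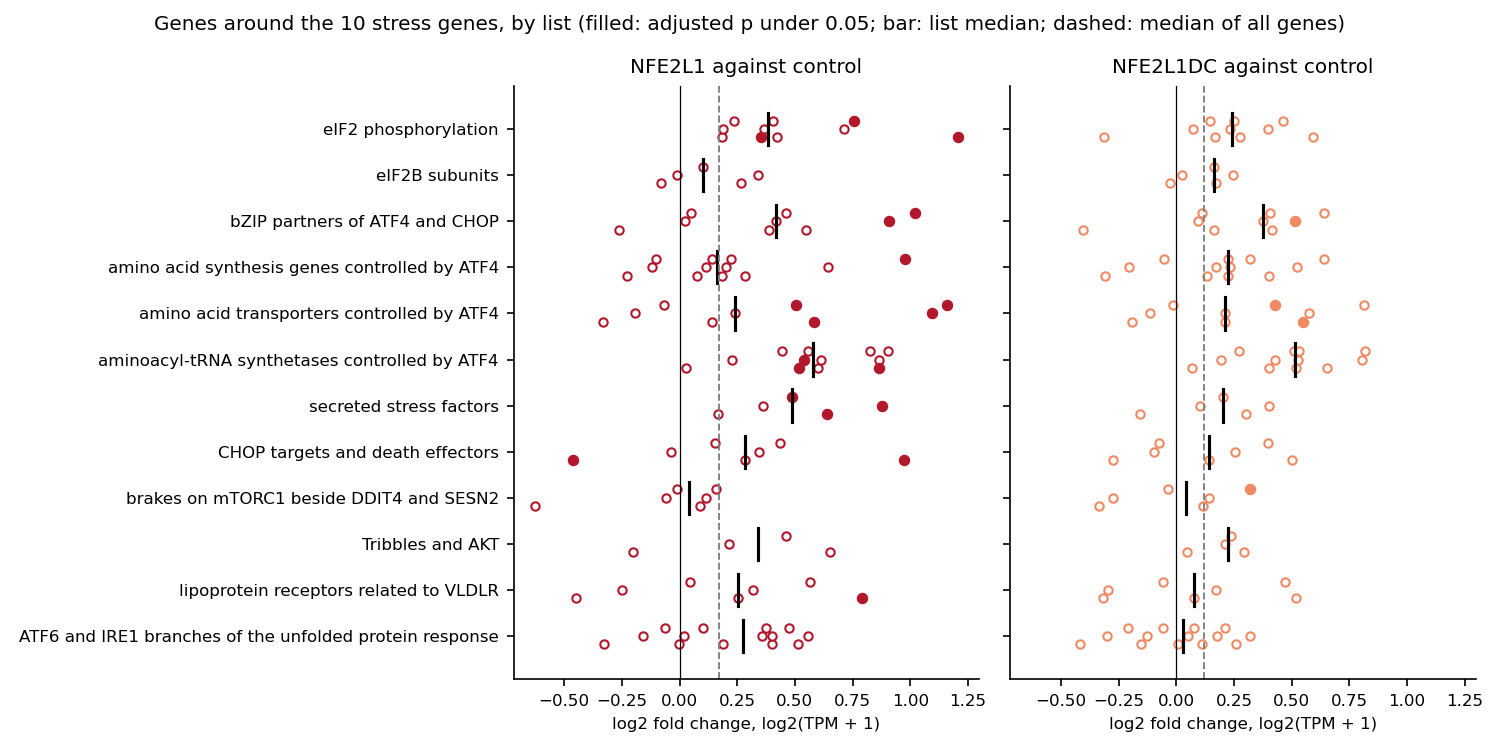
Log2 fold change of log2(TPM + 1) (horizontal axes) of each tested gene in the 12 lists (rows) for NFE2L1 and for NFE2L1DC, each against control; filled points passed limma at an adjusted p under 0.05, black bars are list medians and dashed lines the medians of all genes tested. The synthetase row lies to the right in both panels, with medians of 0.58 and 0.51, and the row of eIF2 phosphorylation holds the called EIF2AK2 at 1.21.

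Downstream of CHOP, 7 targets and death effectors went both ways with NFE2L1. PMAIP1, which encodes the death effector NOXA, rose 2.30-fold (limma adjusted p = 0.0177). With all libraries BBC3, which encodes PUMA, was the 1 gene of the lists that fell. BBC3 stood at 8.91 ± 0.328 TPM with NFE2L1, against 12.7 ± 1.36 TPM in control (log2 fold change -0.46, adjusted p = 0.0435). The BBC3 call held in 8 of 20 other settings, and in 1 of the 9 that left out 1 library. Without control replicate 3, 3 of the 7 rose and 1 fell with NFE2L1, beside 30.6% and 5.73% of all genes. With NFE2L1DC 3 rose there, beside 20.4%. Among 6 tested brakes on mTORC1, none passed with NFE2L1. EIF4EBP1, the inhibitor of cap-dependent translation, rose 1.25-fold with NFE2L1DC (adjusted p = 0.0455), a call that held in 6 of 20 other settings. Of the other Tribbles genes and the AKT genes, the 4 tested did not pass in any comparison with all libraries. Without control replicate 3, 2 rose and 1 fell with NFE2L1, beside 30.6% and 5.73% of all genes. With NFE2L1DC 1 rose there, beside 20.4% of all genes. Of 7 lipoprotein receptor genes related to VLDLR, LRP8 rose 1.75-fold with NFE2L1 (adjusted p = 0.0313). Without control replicate 3, 2 of the 7 rose with NFE2L1 and 2 with NFE2L1DC, beside 30.6% and 20.4% of all genes.

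The ATF6 and IRE1 branches of the unfolded protein response, which share stress in the endoplasmic reticulum as a trigger with PERK, gave no call in any of the 3 comparisons. That holds for the fit with all libraries, where the 14 genes had medians of 0.27 with NFE2L1 and 0.03 with NFE2L1DC, beside 0.17 and 0.12 over all genes. Without control replicate 3, 7 of the 14 rose and 2 fell with NFE2L1, where 30.6% and 5.73% of all genes did. With NFE2L1DC 3 rose and 2 fell there, beside 20.4% and 4.32% of all genes. HSPA5, the chaperone BiP and the standard readout of such stress, had 648, 624.5 and 563.5 TPM with NFE2L1, 534, 426 and 465 TPM with NFE2L1DC and 416, 457 and 548 TPM in control. Its NFE2L1 libraries lay above control (log2 fold change 0.38, limma adjusted p = 0.0702), and its NFE2L1DC libraries overlapped it (0.01, adjusted p = 0.975).

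**Figure D5:**
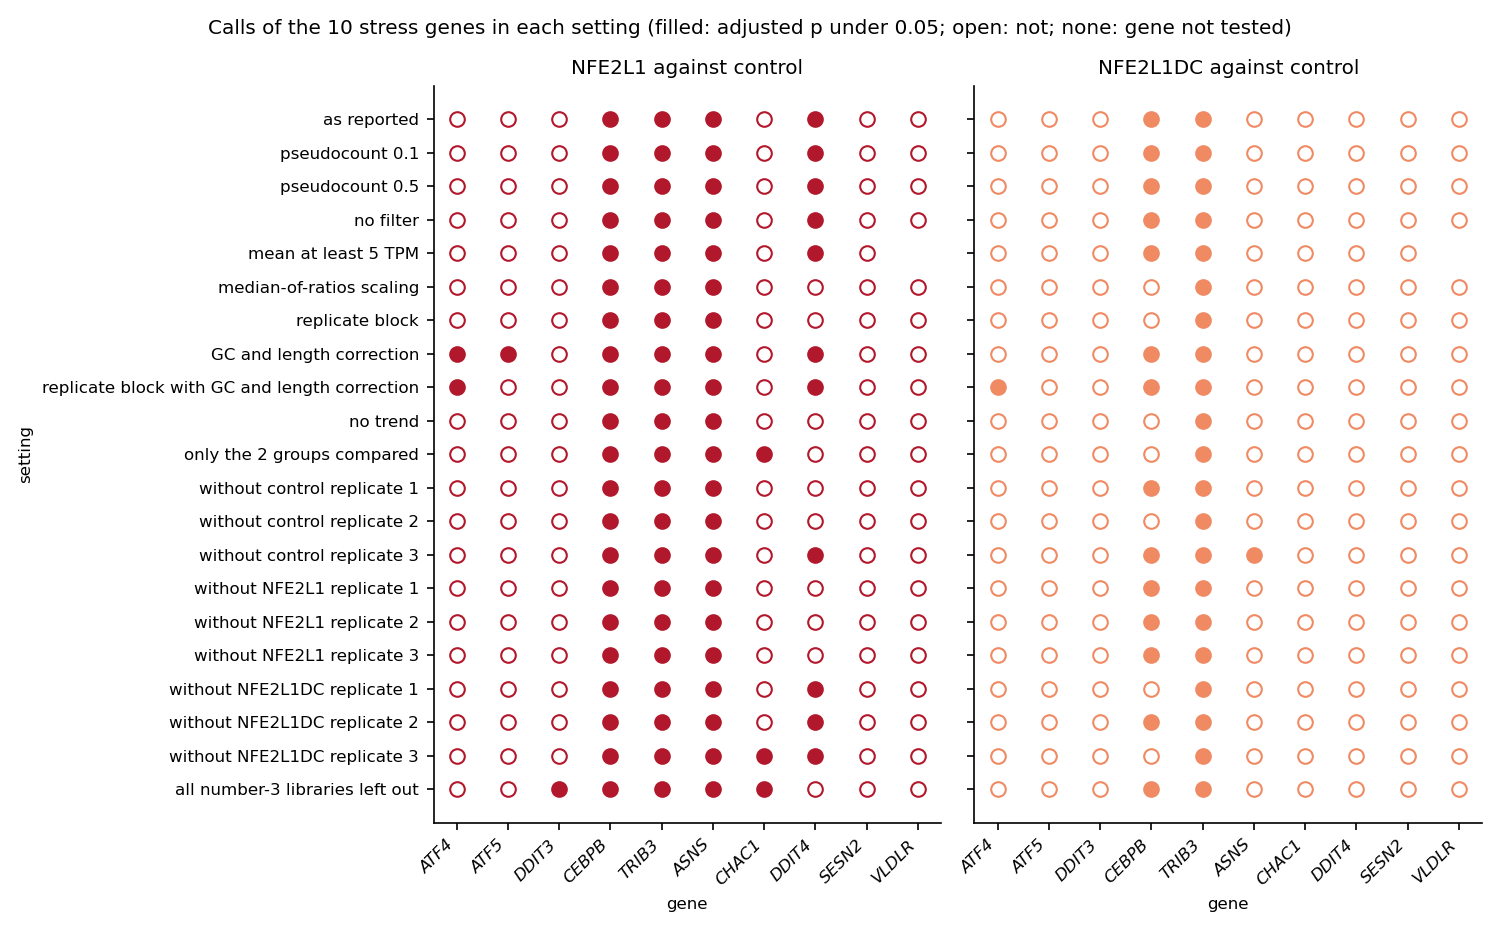
Calls of the 10 genes (columns) for NFE2L1 and for NFE2L1DC, each against control, in the reported fit and 20 other settings (rows); filled circles passed at an adjusted p under 0.05, and VLDLR has no circle where the filter left it out. TRIB3 is filled in every row of both panels, CEBPB and ASNS in every row of the NFE2L1 panel.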

How the data were processed

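RNA-seq of 9 libraries, 3 per group, was analysed from 1 table. The deposited values are TPM, and the submitters' processing notes name CASAVA and the GRCh38 build. No aligner, quantifier, annotation or strandedness is stated there. Of 58174 gene IDs, 57836 matched GENCODE 29, the source of coordinates and overlaps. Genes reaching 1 TPM in at least 3 of 9 libraries (14118) were tested with limma 3.58.1 (R 4.3.3) on log2(TPM + 1), with 1 mean per group over all 9 libraries, a variance trend, 2-sided tests and Benjamini-Hochberg adjustment over all genes tested. A call is an adjusted p under 0.05. The procedure was tested on simulated data.

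The 10 genes and the lists were chosen with earlier results of these data known. Named are the 10 genes, the 4 eIF2 kinases, up to 4 called genes per list and comparison, and the 3 genes most like each of ATF4, DDIT3 and TRIB3. HSPA5 was added after its values were seen. The labels do not say that replicates were separate cultures, so p-values measure the spread between these libraries, which may be technical.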

Additional observations from a re-analysis of the deposited data

How the results depend on the processing

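Of 20 other settings, leaving out all number-3 libraries was chosen after seeing the data. With NFE2L1 against control, between 3 and 6 of the 10 genes changed, and between 3 and 5 when 1 library was left out. The share of all genes called lay between 3.18% and 36.3%, and between 3.57% and 36.3% when 1 library was left out. With NFE2L1DC the count of 2 became 1 under median-of-ratios scaling, the replicate block, no variance trend and only the 2 groups compared. In these fits 2.25%, 1.4%, 2.22% and 0.734% of all genes were called. The count lay between 1 and 3 when 1 library was left out, beside between 0.785% and 24.7% of all genes. Between the lines the count lay between 0 and 1. The 1 was CHAC1 without NFE2L1DC replicate 3, where 0.385% of all genes were called.

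Signs that turned belonged to uncalled log2 fold changes. Under median-of-ratios scaling VLDLR was -0.081 with NFE2L1 and -0.051 with NFE2L1DC, SESN2 -0.031 with NFE2L1DC, and between the lines ATF4 was -0.040, ATF5 -0.058 and VLDLR -0.030. With the GC and length correction, with or without the replicate block, VLDLR was -0.041 with NFE2L1, -0.025 with NFE2L1DC and -0.016 between the lines. When 1 library was left out, VLDLR lay between -0.018 and 0.139 with NFE2L1, -0.153 and 0.229 with NFE2L1DC, and -0.166 and 0.217 between the lines. ATF4 lay between -0.075 and 0.122 and ATF5 between -0.080 and 0.094 between the lines. With NFE2L1DC, DDIT3 lay between -0.237 and 0.0079 and CHAC1 between -0.376 and 0.378. Without all number-3 libraries CHAC1 was -0.308 with NFE2L1DC.

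The replicate block took the genes called among all tested to 872 with NFE2L1 (6.18%), 198 with NFE2L1DC (1.4%) and 58 between the lines (0.411%). It took the 10 genes to 3, 1 and 0. With the block and the GC and length correction together ATF4 passed limma with NFE2L1 (0.38, adjusted p = 0.0153) and NFE2L1DC (0.33, adjusted p = 0.042). Deviations of same-numbered libraries from their group means correlated between -0.189 and 0.109 over all genes tested. A correlation over all genes cannot tell whether a number marks a shared culture or day, and the labels do not say. Over all settings the all-gene counts, 1468, 509 and 112 as reported, lay between 501 and 5056, 100 and 3440, and 36 and 148; the 5056 and 3440 are without control replicate 3. Median-of-ratios scaling split the calls with NFE2L1 into 542 higher and 526 lower, in place of 1105 and 363, and with NFE2L1DC into 119 and 198, in place of 291 and 218. The cause was not tested. The depth is unknown, so what it limits cannot be given.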
